A study of Mus musculus with 10 samples.

Results

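The homeobox genes Meis1, Meis2, Meis3, Pbx2, Pbx3, Irx3, Irx5 and Shox2 were followed in limb buds of mouse embryos labelled wild type or Dicer mutant. They were taken as all probe sets annotated to exactly 1 of these 8 symbols, which gave 17 of the 45101 probe sets on the array. No probe set named a member together with another gene. Values are the deposited signals, which are linear fluorescence intensities of 10 Affymetrix arrays, 5 per labelled group, numbered 1 to 5 in each. The parents were mice heterozygous for a floxed Dicer allele and carrying the prxcre driver, crossed to mice homozygous for the floxed allele, so every embryo of the cross carries a floxed allele. The mutant arrays are labelled only as mutant and the others only as wild type. Whether embryos heterozygous for the deletion are among those labelled wild type, the embryonic stage, and the use of forelimb or hindlimb are stated by no source used here. Nor is it stated whether an array holds 1 embryo or a pool, so p-values measure only the spread between these samples. The driver is active in limb bud mesenchyme, and limb cells of other origin (ectoderm, muscle precursors, vessels, blood) keep Dicer.

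Dicer is the RNase that cuts microRNA precursors. Its gene checks the labels, and it went against them in both arrays numbered 2. Probe set 1427941_at of Dicer1 read 372 to 706 in wild type 1, 3, 4 and 5 and 205 to 226 in the mutant arrays of those numbers. Wild type 2, at 233, was below that wild type range, and Dicer mutant 2, at 360, above the mutant range. The homeobox genes are therefore compared in the 10 arrays as labelled and in the 8 arrays without the pair numbered 2, and other genes mainly in the 8 arrays, a choice that rests on Dicer1 in these same arrays. Median signals of the arrays lay between 146 and 153.

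MEIS, PBX and Iroquois proteins belong to the TALE class of homeodomain proteins, which carry an extra 3 residues in the loop between the first helices of the homeodomain. MEIS proteins bind DNA together with PBX proteins, bring PBX into the nucleus and assist Hox proteins. In the limb bud Meis1 and Meis2 mark the proximal segment, are induced by retinoic acid from the flank, and are held out of the distal mesenchyme by fibroblast growth factors from the apical ridge. Pbx genes are expressed in limb mesenchyme and act with Hand2 and Hox genes upstream of Shh. Irx3 and Irx5 are neighbours in 1 Iroquois cluster and together are needed for proximal and anterior skeletal elements of the hindlimb. Shox2, a paired-class homeobox gene outside the TALE class, is required for growth of the humerus and femur.

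Of the 8 genes, 6 have an entry among RefSeq promoter sequences of build GRCm38.p6, each spanning 250 bases before to 50 after the start site. The promoters of Meis1, Meis2, Pbx2 and Shox2 are shown. Pbx3, which stood closest to the threshold in the comparison below, and Irx5 have no entry. Capitals mark TATAAA on the printed strand, the letters of a TATA element.
Meis1, chr11:19018920-19019219, minus strand: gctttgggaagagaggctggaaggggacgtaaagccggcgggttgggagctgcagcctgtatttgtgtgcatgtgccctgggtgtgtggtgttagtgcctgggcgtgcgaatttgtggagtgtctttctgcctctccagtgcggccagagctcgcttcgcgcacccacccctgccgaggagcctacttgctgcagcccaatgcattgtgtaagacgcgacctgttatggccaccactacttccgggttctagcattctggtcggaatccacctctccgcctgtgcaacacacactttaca
Meis2, chr2:116064570-116064869, minus strand: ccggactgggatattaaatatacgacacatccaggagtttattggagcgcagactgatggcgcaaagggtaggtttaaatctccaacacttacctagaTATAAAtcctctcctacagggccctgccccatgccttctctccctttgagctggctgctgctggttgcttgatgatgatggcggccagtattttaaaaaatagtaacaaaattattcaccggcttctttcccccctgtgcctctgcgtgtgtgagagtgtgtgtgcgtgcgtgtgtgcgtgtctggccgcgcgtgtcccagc
Pbx2, chr17:34592009-34592308, plus strand: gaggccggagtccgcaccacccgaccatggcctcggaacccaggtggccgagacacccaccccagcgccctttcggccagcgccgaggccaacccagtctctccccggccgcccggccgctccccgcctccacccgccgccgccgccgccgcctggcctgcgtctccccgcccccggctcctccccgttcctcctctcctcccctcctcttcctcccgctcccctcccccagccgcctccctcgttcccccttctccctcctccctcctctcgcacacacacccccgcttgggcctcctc
Shox2, chr3:66981722-66982021, minus strand: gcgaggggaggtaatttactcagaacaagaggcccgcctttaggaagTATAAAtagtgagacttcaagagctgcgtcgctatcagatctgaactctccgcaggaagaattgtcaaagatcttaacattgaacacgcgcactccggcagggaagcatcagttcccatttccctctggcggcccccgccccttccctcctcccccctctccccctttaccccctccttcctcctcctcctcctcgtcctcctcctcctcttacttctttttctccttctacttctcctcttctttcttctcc
TATAAA was found in the windows of Meis2, starting 152 bases before the start site, and Shox2, starting 203 bases before it, and on either strand in 13.6% of all 32851 windows of this length. The half-site of MEIS proteins, TGACAG (19.2% of windows), the PBX site TGATTGA (2.70%) and the retinoic acid receptor half-site AGGTCA (16.3%) were searched on both strands and matched none of the 6 windows. The windows of Meis1, Meis2 and Shox2 held 58.3%, 51.0% and 53.3% G and C, and that of Pbx2 76.0%. These matches describe letters in a short window only.

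No probe set of these homeobox genes passed the test between the labelled groups, and most had slightly higher means in the mutant arrays. Probe sets were tested where their mean log2 signal reached the median of all probe sets, a signal of about 151, and 14 of the 17 did so. Limma called 0 of the 14 at a Benjamini-Hochberg adjusted p below 0.05 in the 10 arrays (background 0% of 22519 tested probe sets) and 0 of the 14 in the 8 arrays (background 1.68%). At an unadjusted p below 0.05 there was 1 of 14 in either comparison, where 2.81% and 12.7% of all tested probe sets passed. With the replicate number as a block, 0 of 14 were called in the 8 arrays, against a background of 5.41%, and 1 of 14 passed at an unadjusted p below 0.05 (background 21.8%). The means were higher in the mutant arrays at 10 of 14 probe sets in the 10 arrays and at 12 of 14 in the 8 arrays, where 40.3% and 47.7% of all tested probe sets were higher. These counts hold several probe sets of the same gene, which are not independent. By the main probe set of each tested gene, Meis1, Meis2, Pbx3, Irx3 and Shox2 were higher in both comparisons, and Meis3 and Pbx2 lower. The median log2 fold change of the 14 was 0.12 in the 8 arrays, beside -0.0064 over all tested probe sets. The 95% intervals of the 14 reached from -0.39 to 0.54 at their widest in the 8 arrays. In the 10 arrays the adjusted p of all 14 was 1.00 when rounded. In bulk tissue, fewer cells of a type and less RNA per cell cannot be told apart.

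**Figure D1:**
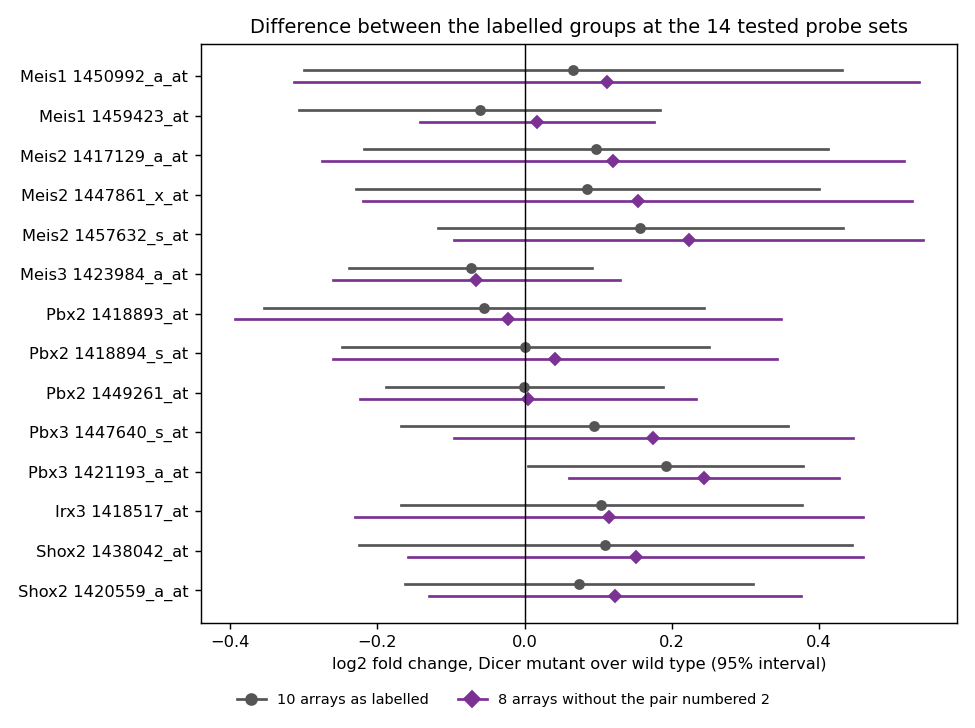
Log2 fold change of Dicer mutant over wild type arrays (horizontal axis) at the 14 tested probe sets, with limma's 95% intervals. Circles are the 10 arrays as labelled and diamonds the 8 arrays without the pair numbered 2; only Pbx3 1421193_a_at has intervals that lie above 0, and neither passed the adjusted threshold.

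Pbx3, which encodes a partner of MEIS proteins, stood closest to the threshold. Its probe set 1421193_a_at read 349.8, 355, 347, 399.5 and 348 in wild type 1 to 5 and 409, 351, 404, 436 and 460.5 in Dicer mutant 1 to 5. Without the pair numbered 2, all 4 mutant arrays lay above all 4 wild type arrays, a separation seen in 1 of the 14 probe sets and in 9.09% of all tested probe sets. The log2 fold change was 0.24 in the 8 arrays (SE 0.082, n = 4 per group, 95% interval 0.060 to 0.43, limma unadjusted p = 0.0148, adjusted p = 0.224), with the mutant array higher in 4 of 4 pairs. In the 10 arrays it was 0.19 (SE 0.085, n = 5 per group, limma adjusted p = 1.00), and the groups overlapped. The block left it at an adjusted p of 0.0930. Only array weights made a call, at 0.31 (limma adjusted p = 0.0204), and over its 19 alternatives the adjusted p ran from 0.0204 to 0.554. The second Pbx3 probe set, 1447640_s_at, gave 0.17 in the 8 arrays (SE 0.12, limma adjusted p = 0.661) and 0.095 in the 10, with the mutant array higher in 3 of 4 pairs and overlapping groups.

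Meis1 and Meis2, the proximal markers, had higher means in the mutant arrays at 5 tested probe sets in the 8 arrays and at 4 of these 5 in the 10 arrays, none past the test. Meis1 1450992_a_at read 140, 166, 155, 233 and 234 in wild type 1 to 5 and 169, 154, 189, 203 and 249 in Dicer mutant 1 to 5. The groups overlapped throughout, and in both groups the arrays numbered 4 and 5 were the highest. Its log2 fold change was 0.11 in the 8 arrays (SE 0.19, 95% interval -0.31 to 0.54, limma adjusted p = 0.914) and 0.066 in the 10. The other tested Meis1 probe set, 1459423_at, ranged from 120 in Dicer mutant 2 to 186 in Dicer mutant 3 and gave 0.016 in the 8 arrays (SE 0.071, limma adjusted p = 0.974). Its direction turned in the 10 arrays, to -0.061 (SE 0.11).

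Meis2 has 3 tested probe sets. The brightest, 1417129_a_at, read 217, 311, 274, 381 and 317 in wild type 1 to 5 and 265, 312, 293, 337 and 381 in Dicer mutant 1 to 5. The groups overlapped, with wild type 1 the lowest of all 10 arrays. Its log2 fold change was 0.12 in the 8 arrays (SE 0.18, limma adjusted p = 0.895) and 0.097 in the 10. The probe set 1457632_s_at gave the largest Meis2 value, 0.22 (SE 0.14, 95% interval -0.095 to 0.54, limma adjusted p = 0.619), and 1447861_x_at gave 0.15 (SE 0.17, adjusted p = 0.833). Over the 10 arrays these stood at 0.16 and 0.085. All 3 were higher in 3 of 4 pairs, the exception at each being the pair numbered 4. Suffixes _s_at and _x_at mark probe sets that may match more than 1 transcript.

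Meis3, the third MEIS paralog, lay slightly the other way. It read 348, 324, 317, 300 and 268 in wild type 1 to 5, and 295, 301, 296, 292 and 290 in Dicer mutant 1 to 5. The mutant arrays spanned a narrow range inside that of the wild type arrays. The log2 fold change was -0.066 in the 8 arrays (SE 0.087, limma adjusted p = 0.877) and -0.073 in the 10, and the mutant array was higher in 1 of 4 pairs.

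Pbx2, another MEIS partner, did not separate the groups at any of its 3 probe sets. The brightest, 1418893_at, read 1227, 1177, 1304, 911 and 989 in wild type 1 to 5 and 1285, 1036, 1285, 921 and 890 in Dicer mutant 1 to 5. Within each number the labels differed little, while numbers 4 and 5 were lower than numbers 1 to 3 in both groups. The log2 fold changes in the 8 arrays were -0.023 (SE 0.16, 95% interval -0.39 to 0.35), 0.041 at 1418894_s_at and 0.0049 at 1449261_at, with limma adjusted p of 0.985, 0.965 and 0.996. The values of the 10 arrays were -0.055, 0.00075 and -0.00042.

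Irx3 read 114, 158, 167, 183 and 179 in wild type 1 to 5 and 152, 165, 172, 161 and 204 in Dicer mutant 1 to 5. Its mean lay close to the filter at 151, and wild type 1 was the lowest array. The log2 fold change was 0.11 in the 8 arrays (SE 0.15, limma adjusted p = 0.880) and 0.10 in the 10. Irx5 lay below the filter and was not tested. It read 89, 123, 159, 90 and 75 in wild type 1 to 5 and 75, 222, 103, 81 and 85 in Dicer mutant 1 to 5. The high arrays were Dicer mutant 2, wild type 3 and wild type 2. This gave the widest range of the 17 probe sets, 2.98-fold from the lowest to the highest array, at signals whose distance from background is unknown without detection calls. Leaving out the pair numbered 2, which holds the highest array, moved the Irx5 difference from 0.00064 to -0.21 on the log2 scale. The remaining untested probe sets, Meis1 1443260_at and Meis2 1440091_at, stayed between 73 and 118 and between 66 and 123. Their differences in the 8 arrays were 0.18 and -0.088.

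Shox2 was read by a pair of probe sets. At 1438042_at wild type 1 to 5 had 1836, 1943, 2289, 2785 and 2999, and Dicer mutant 1 to 5 had 2558, 1869, 2711, 2845 and 2702. The lowest values were those of wild type 1, Dicer mutant 2 and wild type 2, and the groups overlapped. The log2 fold change was 0.15 in the 8 arrays (SE 0.14, 95% interval -0.16 to 0.46, limma adjusted p = 0.781), from 0.48 in pair 1 and 0.24 in pair 3 to 0.031 in pair 4 and -0.15 in pair 5. At 1420559_a_at the fold change was 0.12 (SE 0.11, adjusted p = 0.781). With all 10 arrays the values were 0.11 and 0.074.

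Array weights, which let arrays that fit their group poorly count less, moved many of these values by more than 1.5 times. In the 8 arrays they gave 0.41 at Meis1 1450992_a_at, 0.37 at Meis2 1417129_a_at and 0.31 at Shox2 1438042_at. They gave -0.30 at Pbx2 1418893_at. In the 10 arrays the same probe sets stood at 0.35, 0.31, 0.30 and -0.25. At an unadjusted limma p below 0.05 there were then 7 of the 14 probe sets in the 8 arrays and 8 in the 10, beside 30.5% and 23.0% of all tested probe sets. The weights of the 8 arrays were 1.71 and 1.95 in wild type 1 and 3 and 0.672 and 0.296 in wild type 4 and 5. They were 0.521 and 0.545 in Dicer mutant 1 and 3 and 2.19 and 2.43 in Dicer mutant 4 and 5. The weighted comparison therefore set mainly wild type arrays numbered 1 and 3 against mutant arrays numbered 4 and 5, and numbers differ as described below.

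**Figure D2:**
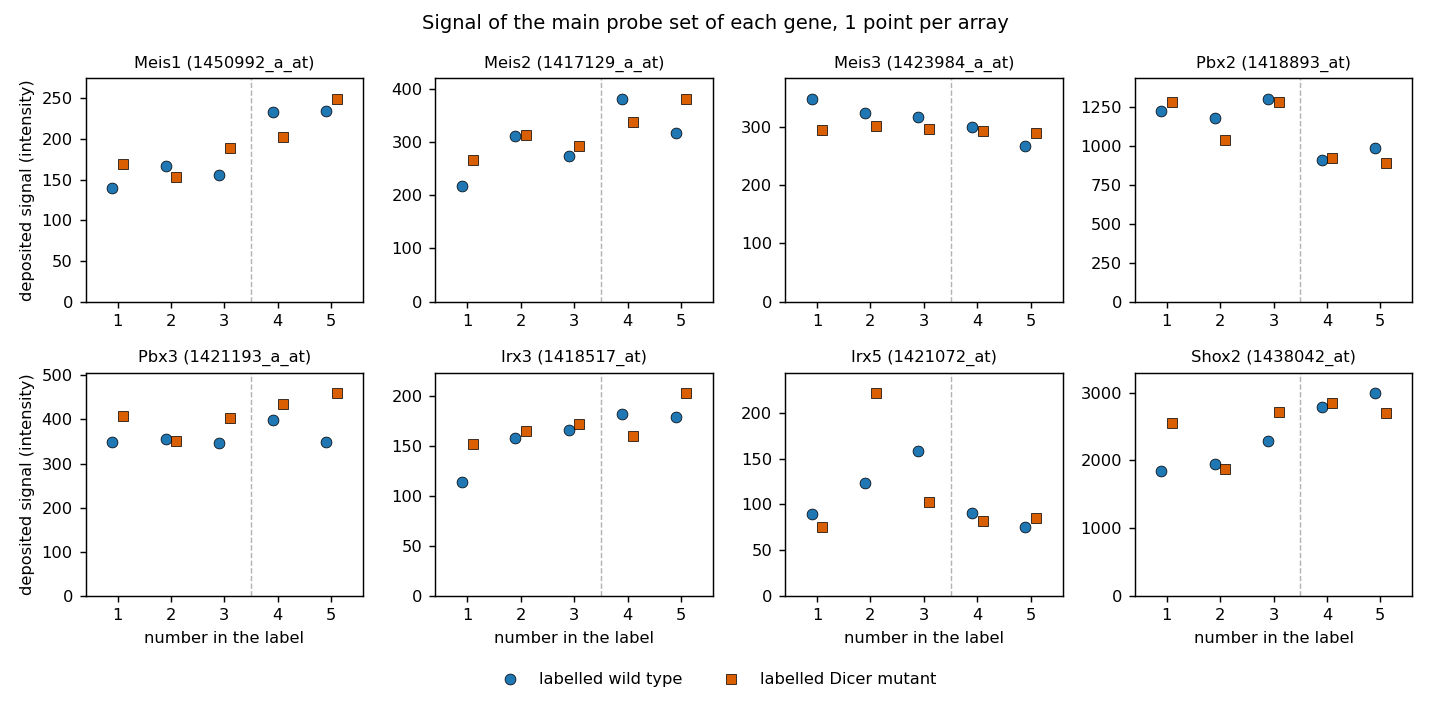
Deposited signal (vertical axis, from 0) of the main probe set of each gene against the number in the label, with 1 point per array; circles are labelled wild type, squares Dicer mutant, and the dashed line separates numbers 1 to 3 from 4 and 5. At Meis1 and Meis2 numbers 4 and 5 sit above numbers 1 to 3, and at Pbx2 below them, while the labelled groups overlap at every gene.

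The array wild type 1 was the lowest of all 10 at 7 of the 14 tested probe sets, those of Meis1 (1450992_a_at), Meis2 (all 3), Irx3 and Shox2 (both). Over all tested probe sets the same array was the lowest at 4.71%. Without it most of the higher mutant means came close to 0. In the remaining 7 of the 8 arrays the log2 fold changes were -0.024 at Meis1 1450992_a_at, -0.022 at Meis2 1417129_a_at, -0.041 at Irx3 and 0.015 at Shox2 1438042_at. Pbx3 1421193_a_at stood at 0.23 without it (limma adjusted p = 0.407). The pair numbered 2 had the opposite sign to the 8 arrays at 10 of the 14 probe sets (71.4%), beside 67.8% of all tested probe sets.

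At most of the tested probe sets the larger differences ran along the numbers of the labels. Exceptions were Pbx3 1421193_a_at, Meis2 1457632_s_at and Shox2 1420559_a_at. Their log2 differences were 0.24, 0.22 and 0.12 between the labelled groups of the 8 arrays. Between numbers 4 and 5 and numbers 1 to 3 they were 0.15, 0.17 and 0.097. The first principal component of the tested probe sets (37.7% of the variance) separated numbers 1 to 3 from 4 and 5. What the numbers stand for is not stated. Since these sides come from the data themselves, the values are a description with no test. Arrays numbered 4 and 5 did not overlap numbers 1 to 3 at 5 of the 14 probe sets, beside a background of 20.0%. They lay above at 2 (background 8.34%) and below at 3 (background 11.7%).

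Of Meis1 and Meis2, 1 tested probe set each lay above. Meis1 1450992_a_at ran from 140 to 189 in numbers 1 to 3 and from 203 to 249 in numbers 4 and 5, a 1.42-fold difference of geometric means (0.51 on the log2 scale, 0.60 within the wild type arrays and 0.41 within the mutant arrays). Meis2 1417129_a_at ran from 217 to 312 and from 317 to 381, a difference of 0.35 (0.40 within wild type and 0.31 within mutant arrays). The gap of Meis2 was narrow, and centring each array on its median closed it. The other tested probe set of Meis1 had a difference of 0.098 and overlapped, so the probe sets of Meis1 disagreed in size. The other tested Meis2 probe sets differed by 0.33 (1447861_x_at) and 0.17 (1457632_s_at) and overlapped. Meis2 1440091_at, not tested, also lay above, from 66 to 88 and from 90 to 123, a difference of 0.43.

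Pbx2 lay below at all 3 of its probe sets. At 1418893_at numbers 1 to 3 had 1036 to 1304 and numbers 4 and 5 had 890 to 989, a log2 difference of -0.39 (-0.38 within wild type and -0.40 within mutant arrays). The values were -0.28 at 1418894_s_at and -0.17 at 1449261_at. The narrow gap at 1449261_at closed with quantile normalization. Of the other genes, Shox2 differed by 0.38 at 1438042_at and 0.097 at 1420559_a_at, and Pbx3 by 0.15 at 1421193_a_at and 0.29 at 1447640_s_at. Irx3 differed by 0.24 and Meis3 by -0.12, and all of these overlapped. Irx5, not tested, differed by -0.54 with overlap. Without both arrays numbered 2, 6 of the 14 did not overlap, beside 26.5% of all tested probe sets.

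**Figure D3:**
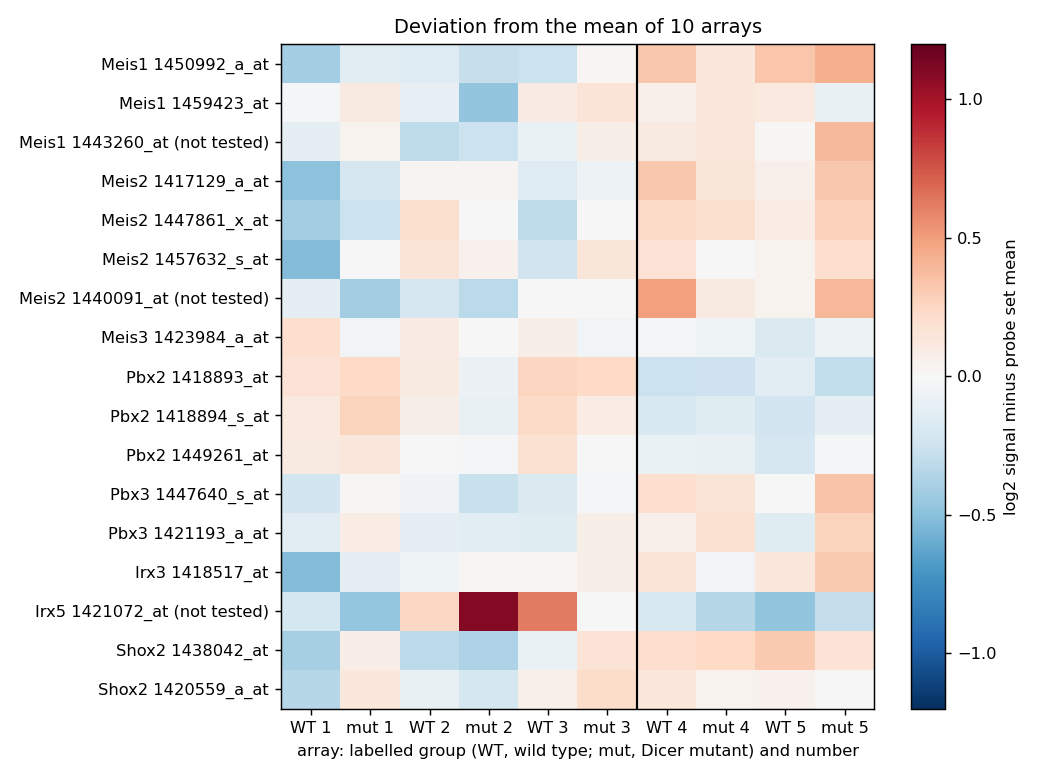
Log2 signal of each of the 17 probe sets (rows) in each of the 10 arrays (columns, by number), minus the mean of the row; red is above and blue below the mean, and the black line separates numbers 1 to 3 from 4 and 5. Meis1 1450992_a_at, Meis2 1417129_a_at and the untested Meis2 1440091_at are lower in every array left of the line than in any right of it. All 3 Pbx2 rows are the reverse. Wild type 1 is the lowest array at Meis1 1450992_a_at, the tested Meis2 rows, Irx3 and Shox2.

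Markers of the tissue were present on both sides, and some single markers differed between them. Of 10 limb mesenchyme markers 9 were tested, none of the 10 was at 0 in any array, and their summed signal ran from 12177 to 13377 in numbers 1 to 3 and from 11151 to 11938 in numbers 4 and 5. Among them Tbx5, the forelimb T-box gene, was higher in numbers 4 and 5 (619 to 766) than in 1 to 3 (481 to 589). Prrx2, a mesenchymal homeobox gene, was lower (917 to 1050 against 1477 to 1653), as was Hand2 (1735 to 1931 against 2045 to 2733). The other tested genes of this list overlapped, from -0.46 at Tbx4 to 0.10 at Lhx9 on the log2 scale. The list median was -0.23. The summed signal of 8 cartilage markers was 4607 to 5750 in numbers 4 and 5 and 6025 to 7401 in 1 to 3. That sum leaned on its brightest genes, Col2a1 (-0.84 on the log2 scale) and Col9a1 (-0.34). Of the 6 tested cartilage genes only 1, Col2a1, lay apart. Sox9 (-0.13) and Col11a1 (-0.032) overlapped, and Matn1, not tested, was higher (0.20) with overlap. The summed signal of 10 somite and body wall markers overlapped, at 2614 to 3257 in numbers 4 and 5 and 2533 to 3317 in 1 to 3. Of all 54 tested markers, 3 lay higher in numbers 4 and 5 without overlap (background 8.34%) and 7 lower (background 11.7%). These counts are near the shares over all tested probe sets. Among those of other cells, the endothelial receptor gene Kdr was higher (489 to 736 against 330 to 364), as was the embryonic globin gene Hbb-bh1 (9132 to 11703 against 4326 to 8917). The ectodermal keratin genes Krt5 and Krt14 were lower, by -0.57 and -0.73 on the log2 scale. No other tested gene of these 3 lists lay apart, and their medians were 0.16, 0.13 and 0.019. The endothelial gene Tie1, not tested, was lower without overlap (-0.29). The ectodermal genes Cdh1 (0.25), Trp63 (0.24) and Krt18 (0.21) were higher with overlap. The named genes therefore do not stand for their lists. The part of these markers in the Meis and Pbx2 values was not tested. Between the labelled groups of the 10 arrays the summed signals of all 9 marker lists overlapped. Without the block, limma called 0 of the 54 tested markers in the 10 arrays and 2 in the 8 (background 1.68%). Both were lower, the cartilage collagen gene Col11a1 (log2 fold change -0.58, limma adjusted p = 0.0314) and the nerve gene Gap43 (-0.34, limma adjusted p = 0.0466). With the replicate number as a block 7 of the 54 were called in the 8 arrays (background 5.41%). Higher were Tbx4 and the white blood cell genes Ctss (0.43, adjusted p = 0.0197) and Tyrobp (0.49, adjusted p = 0.0164). Lower were Col11a1, Gap43, the somite gene Meox2 (-0.41, adjusted p = 0.0374) and Krt14 (-0.39, adjusted p = 0.0435). List medians in the 8 arrays were 0.011 (somite and body wall), 0.070 (ectoderm) and -0.010 (limb mesenchyme). They were -0.22 (cartilage), -0.33 (nerve and Schwann cells) and 0.19 (white blood cells). Pax1 (0.092), Krt18 (0.13) and Col2a1 (0.083) were higher and Sox10 (-0.0095) was near 0, so single called genes do not stand for whole lists. The part of these markers in the values of the homeobox genes was not tested.

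Other genes of the pathway were read from lists chosen with earlier results of these data known. Retinoic acid induces Meis genes. Of 12 tested retinoic acid genes, 0 were called in the 8 arrays (background 1.68%) and 1 with the block (background 5.41%). Their median log2 fold change was -0.066. Aldh1a2, the enzyme that makes retinoic acid in the flank, had the largest value. It read 853, 373, 1132, 448 and 408 in wild type 1 to 5 and 446, 1081, 476, 248 and 195 in Dicer mutant 1 to 5. The mutant array was lower in 4 of 4 pairs and higher in the pair numbered 2. The log2 fold change was -1.03 in the 8 arrays (SE 0.39, limma adjusted p = 0.294), and it was called with the replicate number as a block (adjusted p = 0.00275). Over 19 alternatives the adjusted p ran from 0.00275 to 0.578, with no change of sign. In the 10 arrays the value was -0.51 (limma adjusted p = 1.00). Rdh10, which makes the aldehyde that Aldh1a2 uses, stood at -0.29 (adjusted p = 0.144) and Crabp1, a binding protein for retinoic acid, at -0.22 (adjusted p = 0.468). Set beside these, the Meis1 and Meis2 values of the same 8 arrays were 0.11 and 0.12 at their main probe sets. In numbers 4 and 5, 4 of the 12 genes lay below numbers 1 to 3 without overlap (background 11.7%) and 0 above (background 8.34%). Aldh1a2 was lower there by -1.11 on the log2 scale, with overlap. Meis1 1450992_a_at and Meis2 1417129_a_at lay higher, and a link between these values was not tested.

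Among 15 tested genes of a list of proximal limb regulators and SHOX2 related genes, 1 was called in the 8 arrays (background 1.68%) and 0 in the 10. The list also holds limb type genes such as Tbx4 and Tbx5, and it shares Hoxa11 with the distal list below. The block called 4 in the 8 arrays (background 5.41%). Hoxa9, expressed in the proximal limb bud, was higher in 4 of 4 pairs (0.70, SE 0.072, limma adjusted p = 0.00282) and stood at 0.40 in the 10 arrays. Tbx4, the hindlimb T-box gene, read 192, 273, 205, 137 and 160 in wild type 1 to 5 and 298, 214, 320, 208 and 220 in Dicer mutant 1 to 5. It was higher in the mutant array in 4 of 4 pairs and lower in the pair numbered 2. Its log2 fold change was 0.58 in the 8 arrays (SE 0.17, limma adjusted p = 0.157) and 0.40 in the 10. In the 8 arrays it was called with the block (limma adjusted p = 0.00705). Over 18 alternatives of the 8 arrays the adjusted p ran from 0.00705 to 0.386 and the fold change from 0.30 to 0.68. The others called with the block were the transcription factor genes Zbtb16, higher (0.48, limma adjusted p = 0.0338), and Emx2, lower (-0.62, limma adjusted p = 0.0192). Tbx5 stood at -0.21 (SE 0.14, adjusted p = 0.649) and was lower in 4 of 4 pairs. Hoxd9 stood at -0.31 (adjusted p = 0.224). Both were nearer to 0 in the 10 arrays, at -0.11 and -0.16.

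**Figure D4:**
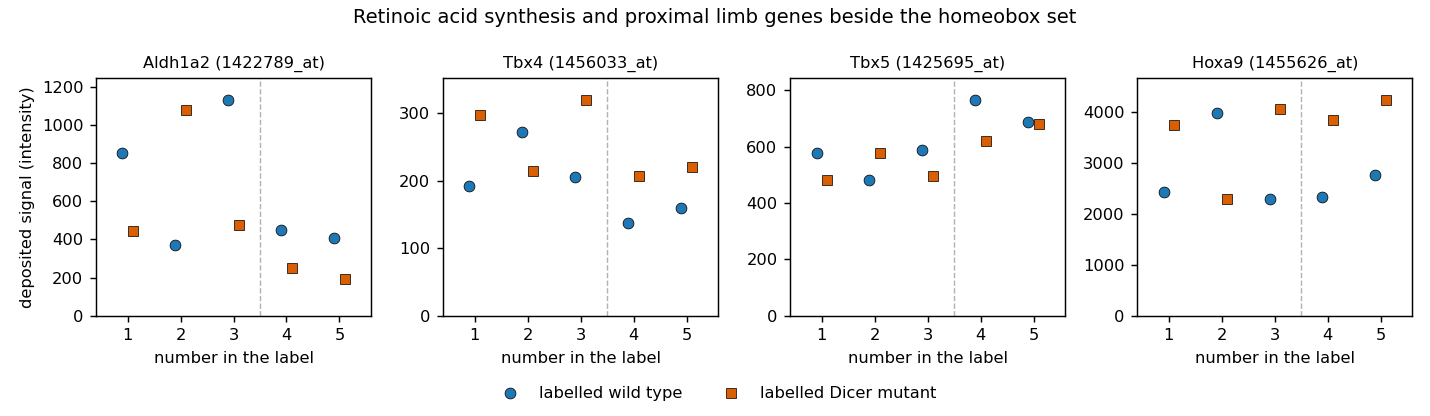
Deposited signal (vertical axis, from 0) of Aldh1a2, Tbx4, Tbx5 and Hoxa9 against the number in the label, with 1 point per array; circles are labelled wild type and squares Dicer mutant, and the dashed line separates numbers 1 to 3 from 4 and 5. In numbers 1, 3, 4 and 5 Aldh1a2 and Tbx5 are lower, and Tbx4 and Hoxa9 higher, in the mutant array; number 2 runs the other way at all 4 genes.

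The remaining TALE genes gave no call. Of 5 tested MEIS and PBX relatives, Tgif1, a TALE repressor gene, stood at 0.29 (limma adjusted p = 0.276), Tgif2 at 0.17 (adjusted p = 0.454) and Pknox1, the gene of the PBX partner PREP1, at 0.16 (adjusted p = 0.465). Of 3 tested genes of the Iroquois list, Irx2 and Irx6 stood at 0.043 and 0.037, and Fto, the gene next to the Irx3 and Irx5 cluster, at -0.17 (adjusted p = 0.815). None of 19 tested distal and apical ridge genes was called by limma in the 8 arrays (background 1.68%), with a median of 0.0089. Those with the smallest p were Lhx9 (-0.13), Dlx5 (-0.25) and Fgf9, a ridge growth factor gene (-0.33), at adjusted p of 0.500, 0.577 and 0.595.

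The genes whose log2 signals followed each member most closely over the 10 arrays were found by Pearson's r among 11600 other genes. As the arrays fall into the sides described above, r is also given after centring each side on its own mean. Irx3 was most like Meis2 (r = 0.87, 0.82 within sides), then Igf1 (0.86, 0.83) and Znf41-ps (0.85, 0.78). Without the 2 arrays farthest from the Irx3 median its r was 0.58 with Meis2, 0.69 with Igf1 and 0.58 with Znf41-ps, so these relations leaned on them. Meis2 was most like Prss21, Lnx2 and Glis1 (r = 0.92, 0.91 and 0.91, and 0.81, 0.80 and 0.80 within sides). Meis1 was most like Slitrk6, Camp and Gopc (each 0.95, and 0.74, 0.71 and 0.72 within sides). Pbx2 was most like Ppp4c, Clptm1 and Tjap1 (each 0.98, and 0.89, 0.89 and 0.90 within sides). Pbx3 was most like Iws1, Cep76 and Rasa2 (0.94, 0.91 and 0.90, and 0.92, 0.90 and 0.92 within sides). Without the 2 arrays farthest from the Pbx3 median its r with Cep76 was 0.76. Meis3 was most like Mbd1, Tpx2 and Arrdc4 (0.95, 0.95 and 0.93, and each 0.93 within sides). Its r with Arrdc4 was 0.79 without the 2 arrays farthest from the Meis3 median. Shox2 was most like Igha, Rprd1a and C330024D21Rik (0.95, 0.94 and 0.93, and 0.89, 0.86 and 0.84 within sides). These values are the highest of many, from arrays that share label, number and scaling.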

How the data were processed

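The authors deposited intensity values of 45101 probe sets for each of the 10 arrays; GCOS 1.3 is named per the submitters' processing notes. No source used here gives the summarization, the scaling target or detection calls. Array means, trimmed by 2%, ran from 276 to 289, so no normalization was added. The members and all gene lists were chosen with earlier results of these data known.

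Values under 1 were raised to 1 before log2, and 64 control probe sets were dropped. The 22519 probe sets with a mean log2 value at or above the median were tested with limma 3.58.1 in R 4.3.3 (lmFit, eBayes with an intensity trend), with p-values adjusted over all of them; the code was tested on simulated data. Named were every member probe set, the 3 genes of each pathway list with the smallest p in the 8 arrays (and Tbx5), and the 3 genes most like each tested member. The main probe set of a gene was its brightest tested one, with suffixes _s_at and _x_at used only where there was no other; for Pbx3 this leaves out a brighter _s_at probe set. Marker genes, Zbtb16 and Emx2 were named after their values were seen.

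The numbers in the labels were checked as pairs through each array's deviation from the mean of its group. For numbers 1, 3, 4 and 5 of the 8 arrays the paired deviations correlated at 0.55, 0.55, 0.71 and 0.32. The highest correlations across different numbers were 0.54, 0.54, 0.52 and 0.52. In the 10 arrays number 2 gave -0.18. In the 8 arrays the paired value was thus clearly the higher at number 4, barely at numbers 1 and 3, and not at number 5. Counts by pair and the replicate block follow the label numbers, whose pairing these values bear out only in part. The main fits used no pairing. Tested alternatives were quantile normalization, median centring, offsets of 16 and 64, other filters, no trend, array weights, the replicate block, some pairs alone and leaving out each array.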

Additional observations from a re-analysis of the deposited data

Results flagged for a closer look

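Among 34 groups of 5 arrays checked, 1 per probe set and label, 2 held an array far from the rest of its group; chance marks about 1 group in 20. Pbx3 1421193_a_at read 399.5 in wild type 4 and 347 to 355 in wild type 1, 2, 3 and 5. Shox2 1438042_at read 1869 in Dicer mutant 2 and 2558 to 2845 in the remaining mutant arrays. This array also went against its label at Dicer1.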

How the results depend on the processing

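No setting called a member by limma in the 10 arrays, and in the 8 arrays array weights called 1, Pbx3 1421193_a_at, while calls over all probe sets rose from 378 to 2612. With the replicate block the 8 arrays gave 1219 calls, of which 0 were members; the block added Aldh1a2, Tbx4, Zbtb16, Emx2 and 4 markers to the calls named. Leaving out single arrays of the 8 gave 93 to 745 calls over all probe sets and 0 members. Of 552 alternative values of the tested member probe sets 494 kept their sign, and the 58 that turned were never called; of 120 values of the 3 untested probe sets 10 turned sign. Irx5 in the 10 arrays went from 0.00064 to -0.28 without Dicer mutant 2. The precision is limited by 10 arrays without detection calls, and the causes of the changes were not tested.

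Among settings that kept all arrays in use, quantile normalization turned Pbx2 1449261_at to 0.031 in the 10 arrays and median centring turned it to 0.010, from -0.00042. Array weights, which also enlarged the values at the main probe sets of Meis1, Meis2, Shox2 and Pbx2 by more than 1.5 times, turned Pbx2 1418894_s_at to -0.15 in the 10 arrays and to -0.17 in the 8, and in the 8 arrays also Pbx2 1449261_at to -0.12, Meis1 1459423_at to -0.0059 and Tbx5 to 0.0077. Pairs 1, 2 and 3 alone gave -0.050 at Pbx2 1418894_s_at in the 10 arrays. Pairs 1 and 3 alone gave 0.022 at Pbx2 1418893_at and -0.077 at 1449261_at.

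Pairs 4 and 5 alone, with 2 arrays per group, turned the most values. They gave -0.053 at Meis1 1450992_a_at, -0.064 at Meis1 1459423_at, -0.0067 at Meis2 1457632_s_at, 0.037 at Meis3, 0.087 at Pbx2 1449261_at, -0.00037 at Irx3, -0.060 and -0.066 at Shox2 1438042_at and 1420559_a_at, and -0.013 at Irx2. Hoxa9 kept its direction there but not its call (0.67, limma adjusted p = 0.340). Numbers 4 and 5 lay apart from 1 to 3 at 9 of 14 probe sets in the wild type arrays alone and at 9 in the mutant arrays alone, with backgrounds of 40.6% and 48.5%, and at 4 to 7 under the other settings.

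Leaving out 1 array of the 10 gave ranges that crossed 0 of -0.032 to 0.16 at Meis1 1450992_a_at, -0.11 to 0.049 at Meis1 1459423_at, -0.014 to 0.19 at Meis2 1417129_a_at, -0.0082 to 0.16 at Meis2 1447861_x_at, -0.13 to 0.011, -0.066 to 0.057 and -0.052 to 0.046 at Pbx2 1418893_at, 1418894_s_at and 1449261_at, -0.012 to 0.16 at Irx3 and -0.0011 to 0.14 at Shox2 1420559_a_at. Leaving out 1 array of the 8 gave -0.024 to 0.22 at Meis1 1450992_a_at, -0.013 to 0.071 at Meis1 1459423_at, -0.022 to 0.25 at Meis2 1417129_a_at, -0.11 to 0.069, -0.040 to 0.12 and -0.064 to 0.066 at the same Pbx2 probe sets, -0.041 to 0.18 at Irx3, -0.028 to 0.090 at Irx2 and -0.0044 to 0.057 at Irx6.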
